A study of Drosophila melanogaster with 24 samples.

Results

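Males and females were compared within the 2 Drosophila melanogaster lines that had been selected for low male aggression, L1 and L2. The comparison used 4 male and 4 female arrays, which are 8 of the 24 arrays in the series, and they were taken by the selection group, line and sex given in the sample labels, with 2 arrays for each line and sex. Lines H1 and H2, selected for high male aggression, and the unselected lines C1 and C2 contributed 8 arrays each and served to find sex differences that were larger or smaller in L. Every sample was a pool of whole virgin adults of a single sex, aged 3 to 7 days and deprived of food for a short time, so that all groups share these conditions, and each selection group is represented by only 2 lines. Selection acted on the behavior of males in all selected lines, and females were not scored for selection. In a separate assay the authors also scored female aggression in these lines and reported a correlated response, marginal after the shorter food deprivation. The label of the first H2 male sample carries both line numbers, which bears on the comparisons with H, and through the shared estimate of the spread also on the error of the other comparisons.

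In Drosophila the sex chromosomes set the splicing of Sex lethal (Sxl), whose protein controls the splicing of transformer (tra), and tra in turn decides which form of doublesex (dsx) and fruitless (fru) is made. These factors direct the growth of the ovary and the yolk synthesis of the female fat body, and in males the growth of the testis, the accessory gland and the ejaculatory bulb. A whole fly pools all of these organs with the tissues that both sexes share, and in such pools fewer cells of a type and less RNA per cell cannot be told apart.

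Each value is a Signal, the deposited intensity of a probe set on a linear scale, and a sex difference is the mean of log2(Signal + 16) in males minus that in females, averaged over L1 and L2. A gene was called for sex at an adjusted p under 0.001 from limma, and the 4 Signals of a sex are given in the order L1 replicate 1, L1 replicate 2, L2 replicate 1 and L2 replicate 2. The addition of 16 understates differences for genes whose Signal is close to 0 in a sex: the largest male excess, 10.04 for EbpII, became 12.52 with 1 added and 8.20 with 64 added. Probe sets were kept with a Signal of at least 50 on at least 12 of the 24 arrays. A gene near 0 in 1 sex could pass only through the 12 arrays of the other sex. The direction of its difference was then set in advance by the filter. This bears on the share of genes called and on the lists of reproductive and testis genes, whose counts are descriptions. The same limit holds for members of other lists with Signals near 0 in 1 sex, such as COX7AL, RpL10Aa, Hsp60C, Obp51a, Obp56f and Cyp312a1.

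The L arrays were alike in their scaling and differed in their low Signals. After trimming 2% at both ends, the mean Signal was 497.14 to 498.45 on all 24 arrays, while the median was 129.1 to 143.4 on the L male arrays and 79.7 to 82.7 on 3 of the L female arrays. L1 female replicate 1 stood apart with a median of 118.9, a 10th percentile of 14.1 against 3.5 to 4.3 on the other L female arrays, and 35.5% of its probe sets under a Signal of 50 against 44.3% to 45.5%. It correlated with L1 female replicate 2 at 0.973 across probe sets, against 0.987 to 0.988 within the other L pairs. Genes with a mean log2 value under 7 stood 0.47 higher in it than in replicate 2 (median of 1719 genes), and genes over 11 stood 0.18 lower (median of 914 genes). The accessory gland genes had a median of 0.577% of their L1 male Signal on this array and 0.137% to 0.187% on the other L female arrays, and testis genes 0.765% against 0.320% to 0.552%. C1 female replicate 1, an array of the comparison with C, held 3.46% and 3.66% of the Signal of those lists in C1 males. Yolk and eggshell genes were at 0.287% to 0.631% of their female Signal on the L male arrays, so every L array carried the reproductive transcripts of its labelled sex.

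**Figure D1:**
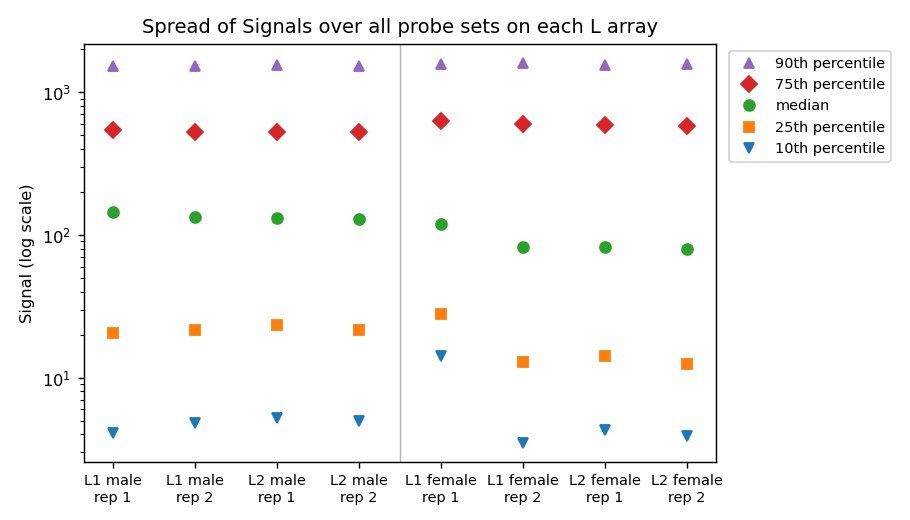
Signal at 5 percentiles over all probe sets on the 4 male and 4 female L arrays (log axis, one column per array). The upper percentiles are level across arrays, and L1 female replicate 1 lies above the other female arrays at its median (118.9) and at its 10th percentile (14.1).

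Most genes differed between the sexes in L. Of the 9913 genes tested, 6043 (61%) were called, 2319 (23.4%) higher in males and 3724 (37.6%) higher in females, and 3870 were not called. Over probe sets the count was 6955 of 11928 (58.3%). The female-higher genes were more numerous and their differences smaller: 1265 genes were over 8-fold higher in males and 203 over 8-fold higher in females, and at 32-fold the counts were 517 and 51. The median difference over all genes was -0.19 in L, -0.18 in H and -0.13 in C, and 6275 genes (63.3%) were called in H, 24.6% higher in males and 38.7% in females, and 6036 (60.9%) in C, 25.6% and 35.3%. In L the 4 male Signals lay above the 4 female Signals without overlap for 2566 genes (25.9%) and below them for 4023 (40.6%). The L1 and L2 differences had the same sign for 9089 of the 9913 genes (91.7%), and the line differences correlated at 0.984 across 9913 genes, which are not independent replicates. The sex difference of 5432 of the called genes was also called in H and in C, with the same sign in all of them. Another scaling moved the balance: with every array set to a common median all genes shifted by -0.55, and 8379 probe sets were called, 23.3% of them higher in males against 37.6% with the deposited scaling.

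**Figure D2:**
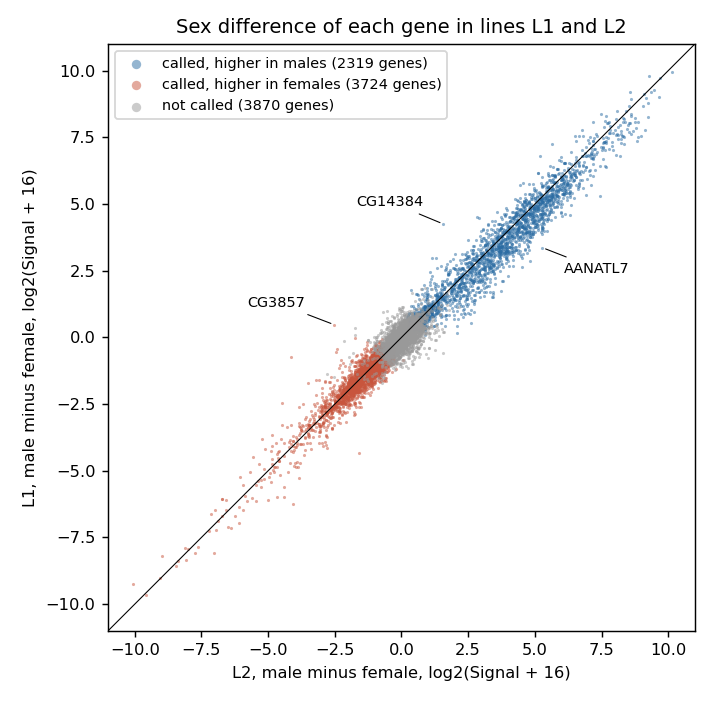
Male minus female difference in log2(Signal + 16) of each of 9913 genes in L1 (vertical) against L2 (horizontal), colored by the call over both lines. The genes follow the diagonal, and the 3 labelled genes, CG3857, CG14384 and AANATL7, are those whose difference was called between the lines.

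The yolk and eggshell list held 20 tested genes, and all 20 were higher in L females, with a median difference of -6.89 against -0.19 over all genes. Yp2 and Yp1 encode yolk proteins that the egg takes up, and they had the largest female excess. Yp2 had Signals of 7.4, 30.8, 4.9 and 10.2 in males and of 17659.9, 23073, 27828 and 22326 in females, a difference of -9.66 (SE 0.27, adjusted p = 9.32e-14). The Signals of Yp1 were 11.6, 10, 41.5 and 2.6 in males and 19748, 23879, 27506 and 23154 in females, with a difference of -9.63. No male Signal of either gene came near a female one. Yp3, which encodes the third yolk protein, had higher male Signals, with 122, 91.9, 130.5 and 145 against 16775, 21377, 24702 and 21612 and a difference of -7.26. For Vm34Ca, a component of the vitelline membrane around the egg, the 4 male Signals were 5.3, 35, 29 and 29.3 and the female ones 12956, 22634, 24469 and 23235, a difference of -9.03 (SE 0.26, adjusted p = 1.12e-13). Its L1 female replicate 1 value was the lowest of the 4, as it also was for Vm26Aa of the same membrane (-8.50, female Signals 9118, 15441, 15988 and 15881). The chorion genes Cp38 and Cp16, expressed as the eggshell is laid down, differed by -8.01 and -7.90.

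For some eggshell and oocyte genes the female excess had a smaller value in L than in H and C without passing the test of that difference. Cp36, a major chorion protein gene, had male Signals of 28.5, 12.8, 79.9 and 41.7 against female Signals of 9399.8, 10254, 6813 and 13723, and its difference was -7.56 in L, -9.04 in H and -8.96 in C. The test of L against the mean of H and C gave 1.44 (SE 0.32, adjusted p = 0.135), which did not pass. Cp7Fc, another chorion gene, was at -6.22 in L, -6.77 in H and -7.55 in C (adjusted p = 0.436 for L against both). Of the 20 genes 6 had both L lines above all 4 H and C lines, against 4.84% of all genes, and none of these differences from H and C was called.

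Of 29 tested genes of germline and oogenesis, 27 were higher in females, 1 in males and 1 was not called, with a median of -3.37. Oskar (osk), which assembles the germ plasm at the posterior of the egg, had male Signals of 11.9, 2.2, 4.1 and 20 and female Signals of 6839, 8250.2, 9372 and 8345, a difference of -8.37 (SE 0.23, adjusted p = 6.57e-14). The mitotic cyclin gene CycB was at 109.5, 78.1, 85.9 and 95 in males and 9046, 10055, 10231 and 10049 in females (-6.52), so that males retained a measurable Signal. The gene of the RNA-binding protein orb, needed for oocyte formation, differed by -7.08 and piwi, which silences transposons in the germline, by -4.80. Bicoid (bcd), whose maternal transcript patterns the head of the embryo, had 10.8, 9.1, 30.6 and 25.1 in males and 1678, 1884, 1662 and 1158 in females. Its difference was -5.56 in L against -6.42 in H and -6.23 in C, with both L lines above the other 4 lines, and this was not called (adjusted p = 0.131). The member called with male excess was benign gonial cell neoplasm (bgcn), which ends the early divisions of germ cells in both sexes. It was at 333, 295, 369 and 309.7 in males and 35.2, 20.9, 34.2 and 14.5 in females (3.05, SE 0.28, adjusted p = 6.04e-08). The member not called, exu, is represented by its brightest probe set, and another of its probe sets had a male excess of 7.20, as described below. Outside this list dhd, a thioredoxin gene of the egg, was among the 10 largest female differences (-8.23), as was CG43074 (-7.97), to which no role is given here.

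Of 31 tested genes of the accessory gland and ejaculatory tract, 30 were higher in L males, with a median of 7.49. EbpII, a protein gene of the ejaculatory bulb, had the largest male excess of all genes tested, with Signals of 19451, 19452, 19019 and 20329 in males and 4.9, 2.2, 2.4 and 0.9 in females and a difference of 10.04 (SE 0.45, adjusted p = 1.3e-11). Mst57Da, an accessory gland peptide gene, was at 20455, 21572, 19219.7 and 21606 in males and 11, 6.8, 4.3 and 13.5 in females (9.71). The lowest male Signal of either gene was 19019 and the highest female Signal 13.5. The accessory gland genes Acp98AB (9.54), Acp53C14b (9.37), Acp53C14a (9.34), Mst57Dc (9.10) and Acp53Ea (8.88), and Ebp of the ejaculatory bulb (9.07), filled most of the other places among the 10 largest. Sex peptide (SP), which changes the receptivity and egg laying of a mated female, had 9179, 11186, 8879.7 and 10645 in males and 20.6, 16.4, 8.2 and 21 in females (8.27, SE 0.55, adjusted p = 1.38e-09). EbpIII was high in both sexes, at 16489, 17779, 19206 and 19452 in males and 10951, 13776, 14105 and 15104 in females. Its difference of 0.44 (SE 0.086, adjusted p = 0.000244) was the smallest called in the list and had an adjusted p of 0.00161 without L1 female replicate 1 and the opposite sign with arrays scaled to a common median. Acp95EF was the member not called, with 174, 205, 281 and 257 in males and 157, 117, 112 and 118 in females (0.78, SE 0.26, adjusted p = 0.0127).

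The testis and sperm list held 31 tested genes, 28 higher in males, 1 in females and 2 not called, with a median of 7.33 in L, 7.33 in H and 6.24 in C. In C1 female replicate 1 this list stood at 3.66% of its C1 male Signal, against 0.321% to 0.720% on the other C female arrays, and the part of this array in the C value was not tested. S-Lap7, a leucyl aminopeptidase of sperm, had 11375, 11895, 11910.1 and 10684 in males and 18.5, 4.3, 3.1 and 2.3 in females (9.01, SE 0.51, adjusted p = 1.89e-10), where the highest female value was that of L1 female replicate 1. Mst87F, a sperm tail component, differed by 8.76, and betaTub85D, the tubulin of meiotic spindles and sperm axonemes, by 7.91. Mst77F, a protein of condensed sperm chromatin, was at 11083, 11584, 11591 and 11869.9 in males and 26.5, 27.1, 16.2 and 14.8 in females (8.30), and Mst84Dc differed by 7.46. In the C lines Mst77F was at 6.78 in C1 and 7.74 in C2, and Mst84Dc at 6.09 and 7.74. Don juan (dj), of the sperm tail, had 5832, 5141, 3059 and 3269 in males and 6.8, 2.1, 6.8 and 4.8 in females. Both L1 males were above both L2 males, and the difference of 7.63 in L stood beside 6.98 in H and 6.12 in C, with 6.61 in C1 and 5.62 in C2 (adjusted p = 0.373 for L against both). The exception was twine (twe), the Cdc25 phosphatase of meiosis, which was higher in females, at 97.2, 86.2, 86.3 and 73.7 in males and 466, 448, 339 and 290.3 in females (-1.96, SE 0.13, adjusted p = 9.3e-10). CG15219, a gene with no role given here, was at 13479, 13468, 12554 and 12403 in males and 10.8, 3.3, 3.0 and 3.4 in females (9.28) and belonged to no list.

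**Figure D3:**
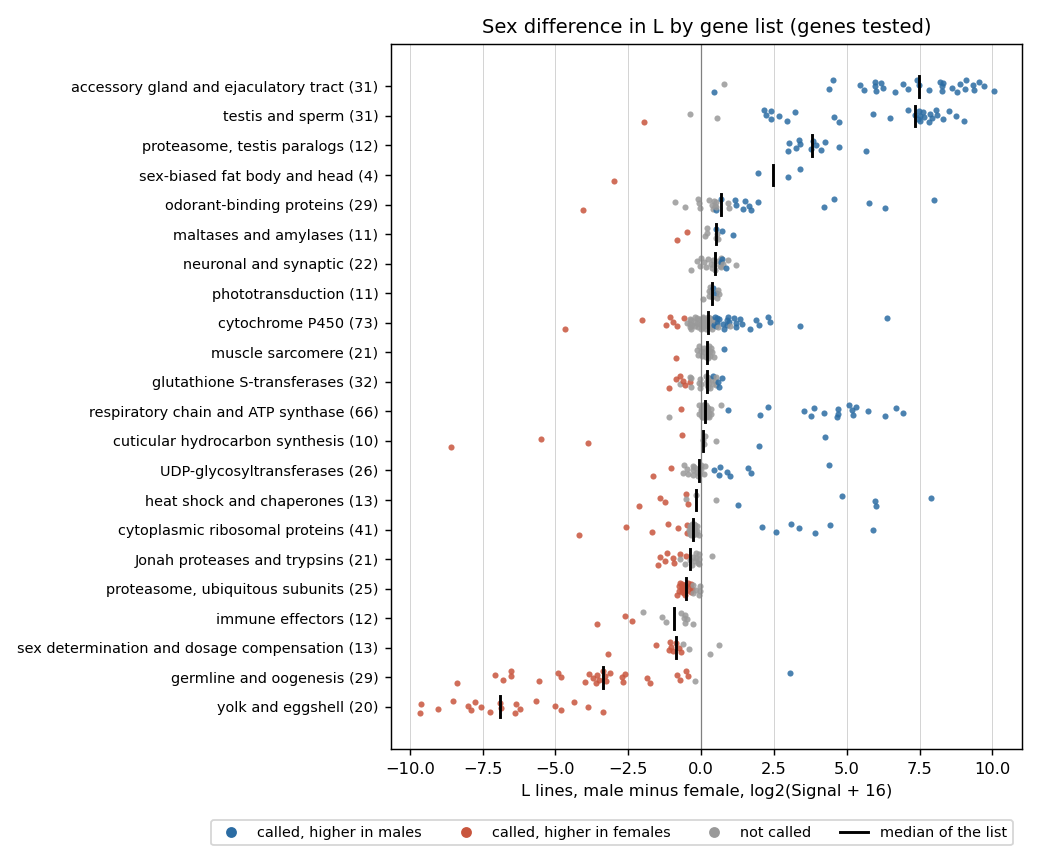
Male minus female difference in log2(Signal + 16) in L of every tested gene in 22 lists (number of genes in parentheses), ordered by the median, with the call in color. The accessory gland (median 7.49) and testis (7.33) lists lie far to the male side and the yolk and eggshell list (-6.89) far to the female side, while the cytochrome P450 list, at 0.23, is at -0.35 when arrays are scaled to a common median.

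Several ubiquitous protein complexes have paralogs made in the testis, and the lists hold both kinds of subunit. The proteasome, the complex that degrades proteins, had 12 testis paralogs tested, and all 12 were higher in males (median 3.80). Members with female Signals near 0, such as Prosalpha6T, were kept through their male arrays, so their direction was set by the filter. Prosalpha6T had Signals of 973, 900.2, 1031 and 981 in males and 6.6, 3.0, 2.9 and 1.2 in females (5.67, SE 0.19, adjusted p = 6.75e-13), and Prosbeta5R1 and Rpn12R differed by 4.75 and 3.84. Of the 25 ubiquitous subunits 19 were higher in females, none in males and 6 were not called, with a median of -0.51. Over all genes tested 23.4% were higher in males and 37.6% in females. Prosalpha6, the ubiquitous counterpart of Prosalpha6T, was at 1390, 1794, 1683 and 1810.3 in males and 2289, 2863, 2647 and 2762 in females (-0.66, SE 0.12, adjusted p = 0.000112). The count of 19 depended on the scaling: it was 24 with a common median over all arrays and 5 with a common median within each sex, while the 12 testis paralogs were called under both.

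The respiratory chain and ATP synthase list held 66 tested genes, with 18 higher in males, 1 in females and 47 not called (17 and 5 higher with a common median). Its median was 0.15. Over all genes tested 23.4% were higher in males and 37.6% in females. Of the 18, 17 bear the letter L after the subunit name, which marks a paralog, and the remaining gene was UQCR-Q. Paralogs with female Signals near 0 were kept through their male arrays, so their direction was set by the filter. COX7AL, the paralog of a cytochrome c oxidase subunit, had 2556, 2183, 2518 and 2057 in males and 9.4, 1.1, 1.3 and 2.6 in females (6.92, SE 0.17, adjusted p = 3.14e-14), and COX7A itself was at 9049.8, 9758, 10583 and 11169.8 and 8689, 10309, 11786 and 11578 (-0.057, adjusted p = 0.51). The members with the highest Signals, ATPsynC, ATPsynbeta and ND-MLRQ, differed by 0.044, 0.021 and 0.013 and were not called. UQCR-11 was the female-higher member, at 74.7, 59.5, 44.6 and 33 in males and 159.5, 128, 56.2 and 56.9 in females (-0.68, SE 0.15, adjusted p = 0.000773), and its L1 male values lay above its L2 female values. Its call ended without L1 female replicate 1 (adjusted p = 0.00467).

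Among 41 cytoplasmic ribosomal protein genes 7 were higher in males, 7 in females and 27 were not called. Of all genes tested, 23.4% were higher in males and 37.6% in females. The male-higher ones were paralogs such as RpL10Aa, with 1818, 1702, 2058 and 1869.6 in males and 34.8, 5.4, 15 and 11.9 in females (5.91, SE 0.29, adjusted p = 3.49e-11), whereas its ubiquitous counterpart RpL10Ab differed by -0.30 (adjusted p = 0.0107). The female-higher ones were led by RpS5b, the ovarian paralog of RpS5a, at 755, 758, 632 and 624 in males and 11575, 12728, 14280.4 and 13101 in females (-4.19, SE 0.10, adjusted p = 3.1e-14). The members with the highest Signals, RpL41, RpS18 and RpLP1, had differences of -0.083, -0.31 and -0.36 and were not called. With a common median 33 genes were higher in females, and with quantile normalization within each sex 30 were, so the number of female-higher genes is not settled, while 7 were higher in males under both. Of the 13 heat shock and chaperone genes 5 were higher in males and 5 in females, or 4 and 7 with a common median. These counts are also read against 23.4% and 37.6% of all genes tested. Hsp60C, a mitochondrial chaperonin paralog needed in spermatogenesis, was at 5144, 4318, 5748 and 4733 in males and 10.1, 2.3, 1.5 and 7.7 in females (7.88, SE 0.31, adjusted p = 3.34e-12), and its ubiquitous relative Hsp60A differed by -1.24 (SE 0.082, adjusted p = 1.18e-09). Hsp26, a small heat shock protein known from ovarian nurse cells, had 1076, 1204, 1608 and 1357 in males and 5771, 6026, 6029 and 5068 in females (-2.12). Hsc70-4 (-0.46) and Hsc70-5 (-0.53) were also higher in females, and Hsc70-3 was not called (-0.17).

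Of 13 tested genes of sex determination and dosage compensation 9 were higher in females, none in males and 4 were not called, with a median of -0.86. With a common median 11 were higher in females. Of all genes tested, 37.6% were higher in females and 23.4% in males. Each gene is represented by its probe set with the highest mean, and dsx, whose transcripts are spliced differently in the sexes, had probe sets that went opposite ways. Probe set 1623776_s_at of dsx had Signals of 49.9, 45.1, 21.9 and 34.1 in males and 522, 561, 422 and 388 in females (-3.20, SE 0.18, adjusted p = 1.43e-10). Probe set 1640799_at had 468, 313, 308 and 281 in males and 40.6, 53.7, 28.1 and 30.8 in females (2.72, SE 0.16, adjusted p = 3.37e-10). The groups did not overlap on either probe set. The probe sets of exuperantia (exu), which localizes bicoid transcript in the oocyte and is needed for spermatogenesis, also disagreed, with a call on a single one. Its probe set 1633180_at was at 8897, 7352, 8218 and 7371 in males and 31.9, 73.3, 11.6 and 56.6 in females (7.20, SE 0.32, adjusted p = 1.27e-11), and 1639059_s_at was at 3263, 2474, 3600.3 and 2826 and 3597, 3595, 3809 and 2958 (-0.21, adjusted p = 0.198). Which transcript each probe set detects was not examined.

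Transformer had 220.3, 261, 173 and 268 in males and 725, 646, 738 and 708 in females (-1.56, SE 0.11, adjusted p = 3.38e-09), and its partner tra2 differed by -0.68. Intersex (ix), the cofactor of female dsx, was at 124, 144, 106 and 145 in males and 313, 303, 299 and 270.1 in females (-1.11). Sxl was at 425, 301, 386 and 353 in males and 643, 679.8, 852 and 754 in females (-0.97, SE 0.13, adjusted p = 6.08e-06) on its brightest probe set, while its other probe sets differed by -0.22 and 0.16 and were not called. The splicing factor genes fl(2)d (-1.04) and vir (-0.61) act with Sxl, and only fl(2)d was called. Among the genes of the dosage compensation complex, which raises transcription of the male X, msl-1 (-1.08), msl-3 (-0.86) and mof (-0.74) were higher in females, and the call of mof ended without L1 female replicate 1 (adjusted p = 0.00295). The helicase gene mle (-0.41) was not called. Msl-2, the subunit that Sxl represses in females, was at 118, 125, 83.5 and 140 in males and 39.7, 119, 69.6 and 69.2 in females (0.60, SE 0.23, adjusted p = 0.0258), with overlap of the groups and no call. Fru, the regulator of male courtship, was at 203, 200, 208 and 156 in males and 175, 121, 150.3 and 167 in females on its brightest probe set (0.30, not called), and at 0.81 (adjusted p = 0.000512) on another.

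All 4 sex-biased genes of fat body and head tissue were called, against 61% of all genes tested. Fit, a fat body gene named for its female-specific expression, had 92, 138, 245 and 275 in males and 858, 2128, 1395 and 1962 in females (-3.0, SE 0.28, adjusted p = 7.46e-08). Obp99b (1.94), the lipase gene sxe2 (2.98) and the P450 gene Cyp4d21 (3.39), which is also known as sxe1, were higher in males. Cyp4d21 had 527, 519, 230.3 and 321 in males and 68.2, 4.0, 26.4 and 12 in females, where L1 female replicate 1 was the highest female.

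The genes of cuticular hydrocarbon synthesis, whose products serve as contact pheromones, included some with wide sex differences and others that did not pass. Of 10 tested, 2 were higher in males, 4 in females and 4 were not called, against 23.4% and 37.6% of all genes higher in males and in females. Fad2, the desaturase that makes the dienes of females, had 24.5, 1.6, 7.2 and 5.8 in males and 7161, 8591, 11416 and 11374 in females (-8.59, SE 0.24, adjusted p = 9.08e-14). The female elongase gene eloF was at 72.4, 85, 92.4 and 91 in males and 4156, 4692, 4659 and 4676 in females (-5.50, SE 0.13, adjusted p = 2.58e-14). Desat2, a desaturase of some natural populations, had 29.6, 77.4, 69.9 and 32.1 in males and 625, 608, 1008 and 2004 in females (-3.88, SE 0.47, adjusted p = 1.57e-06), with L2 females above L1 females. The elongase genes with male excess were Elo68alpha, at 779, 1235, 1320.5 and 1160.2 in males and 65.9, 45.9, 59.3 and 14.9 in females (4.25 in L, 5.58 in H and 5.26 in C, with L against both not called), and bond, at 1622, 1541, 1958 and 1787 and 443, 312, 484 and 457 (2.00). Both enzymes are known from pheromone synthesis in the ejaculatory bulb. FASN3, a fatty acid synthase gene, was the fourth gene higher in females (-0.67). Genes of the common pathway did not pass, among them Desat1 (0.086, adjusted p = 0.433), Cyp4g1 (0.069, adjusted p = 0.522) and FASN1 (0.12, adjusted p = 0.219).

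**Figure D4:**
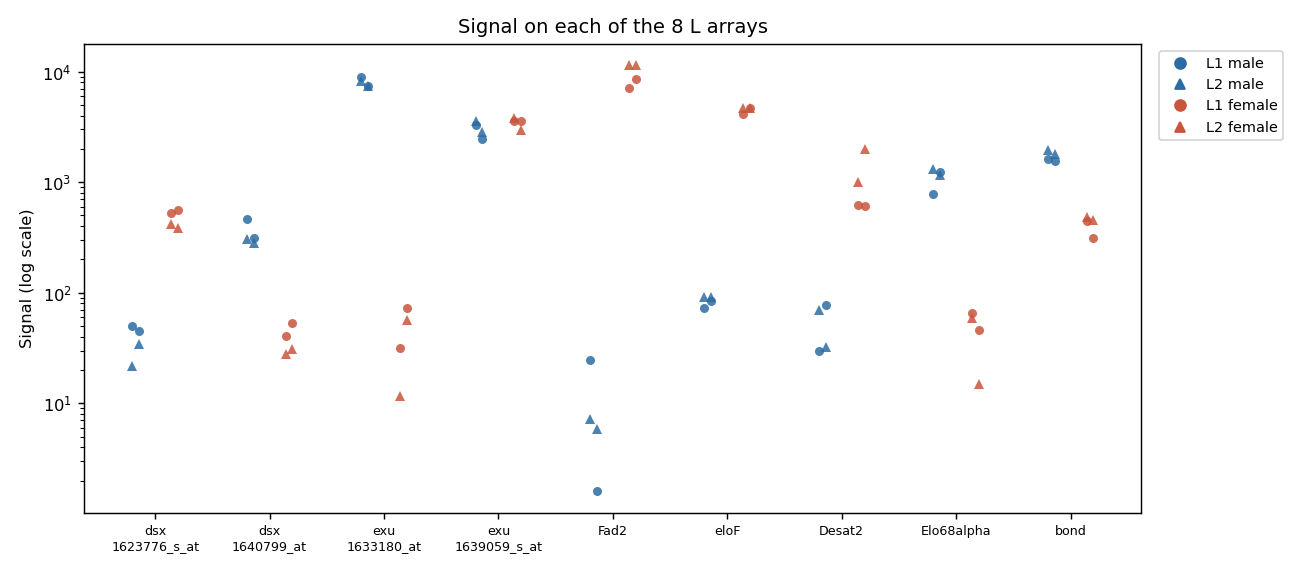
Signal (log axis) on each of the 8 L arrays for both probe sets of dsx and of exu and for 5 genes of hydrocarbon synthesis, males left and females right. The dsx probe sets separate the sexes in opposite directions (-3.20 and 2.72), exu does so on a single probe set (7.20), and Fad2 has the widest gap of the other genes (-8.59).

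Odorant-binding proteins carry small hydrophobic molecules in sensilla and in other fluids of the fly. Of 29 tested 14 were higher in L males, 1 in females and 14 were not called, and with a common median the counts were 8 and 4. Over all genes tested the shares were 23.4% higher in males and 37.6% in females. The widest differences were those of Obp51a, with 6419, 7143, 3501 and 4027 in males and 10, 2.3, 3.3 and 1.6 in females (7.98, SE 0.42, adjusted p = 8.61e-11), and Obp56f, with 1594, 1598, 1292 and 1432 in males and 5.5, 1.7, 3.1 and 1.1 in females (6.31, SE 0.25, adjusted p = 3.72e-12). Obp56g, whose product is also known from seminal fluid, was at 14886, 16645, 16058 and 16957 in males and 708, 797, 436 and 804 in females (4.56). Of the members with high Signals in both sexes Obp44a differed by 1.5 and Obp99c by 0.50, and the call of Obp99c ended without L1 female replicate 1 (adjusted p = 0.00433). Obp99a was at 1.72 in L, 0.67 in H and 0.75 in C, a contrast that was not called (adjusted p = 0.392). Obp19c was the female-higher gene, at 14.6, 27.7, 13.6 and 7.6 in males and 613, 609, 281 and 581 in females (-4.05, SE 0.30, adjusted p = 4.29e-09).

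Enzymes of xenobiotic metabolism are read here against all genes tested, of which 23.4% were higher in males and 37.6% in females. The cytochrome P450 list held 73 tested genes with a median of 0.23, of which 24 were higher in males, 7 in females and 42 not called, and with a common median 9 were higher in males and 17 in females. Cyp312a1 had the largest male excess, at 2609, 2571, 1857 and 2593 in males and 12.9, 3.8, 11.8 and 29 in females (6.37, SE 0.38, adjusted p = 3.94e-10), and Cyp6a19 the largest female excess, at 111, 127, 90.5 and 50.3 in males and 2675, 2250, 3373 and 2490.2 in females (-4.66, SE 0.22, adjusted p = 2.28e-11). Cyp313a1 was at 4884, 5846, 3345 and 3948 in males and 1735, 1782, 774 and 851 in females, and its difference of 1.87 in L compared with 1.17 in H and 1.44 in C (adjusted p = 0.188). Cyp6g1, which metabolizes insecticides, did not pass (0.062, adjusted p = 0.582). Both L lines lay below all 4 other lines for 9 of the 73 genes and above them for 2, against 6.68% and 4.84% of all genes. Of 26 UDP-glycosyltransferase genes 8 were higher in males and 2 in females (2 and 14 with a common median), and Ugt50B3, with 2889, 2055, 2059.6 and 2000.2 in males and 121, 161, 41.9 and 73.9 in females, differed most (4.4). Of 32 glutathione S-transferase genes 4 were higher in males and 6 in females (none and 10 with a common median), and GstD1 (-0.060) and GstS1 (0.27) were not called.

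All 12 tested immune effector genes had lower means in L males than in L females, and 3 passed the test (10 with a common median), Diptericin B (DptB), Drosomycin (Drs) and Defensin (Def). Of all 9913 genes tested, 4224 had a male minus female difference above 0 in L, and 37.6% were called higher in females. DptB, an antibacterial peptide gene induced by the Imd pathway, was at 279.7, 304, 301 and 455 in males and 5936, 2570.4, 7882 and 2313 in females, a difference of -3.57 (SE 0.62, adjusted p = 7.59e-05). In each line the first female sample was over 2-fold the second, and none overlapped with a male Signal. Drs, an antifungal peptide gene of the Toll pathway, was at 5076, 3176, 1278 and 1004 in males and 13871, 12287, 12325 and 13674 in females (-2.60, SE 0.30, adjusted p = 9.28e-07), and the L1 males stood above the L2 males. Def had 96.4, 86.4, 95.3 and 177 in males and 516, 532, 694 and 882 in females (-2.39, SE 0.23, adjusted p = 1.04e-07). Metchnikowin (Mtk) was at 2022, 2804, 1844 and 2254 in males and 11582, 3917, 12998 and 10762 in females and did not pass (adjusted p = 0.00274), nor did CecB (adjusted p = 0.00207), PGRP-SB1 (adjusted p = 0.00423) or BomS2 (adjusted p = 0.00405). The median of the list was -0.94 in L, -0.28 in H and -0.30 in C, and for 5 of the 12 genes, among them DptB, Mtk, CecB and PGRP-SB1, both L lines lay below all 4 H and C lines, a position taken by 6.68% of all genes. For DptB the sex difference was -0.88 in H and -0.76 in C, and the test of L against both gave -2.75 (SE 0.76, adjusted p = 0.27). For Mtk it was -0.51 in H and 0.24 in C (adjusted p = 0.42). No immune gene of the list was called for a difference of L from H and C.

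The 2 lists of digestive enzymes held 21 and 11 tested genes. Their counts are read against all genes tested, of which 23.4% were higher in males and 37.6% in females. Of 21 Jonah protease and trypsin genes of the gut 8 were higher in females, none in males and 13 were not called (18 higher in females and none in males with a common median). Those with the highest Signals, Jon65Aiii (-0.064), Jon65Aiv (-0.080) and alphaTry (-0.10), did not pass. Jon66Cii was at 79.1, 80.6, 171 and 169 in males and 346, 179.7, 377 and 340.4 in females (-1.24, SE 0.19, adjusted p = 2.45e-05), and its difference was -0.23 in H and -0.32 in C (adjusted p = 0.172 for L against both). Of 11 maltase and amylase genes 3 were higher in males and 2 in females, led by Mal-A7 with 4310.2, 4959, 2399.5 and 2391 in males and 2239, 1748, 860.1 and 1671 in females (1.10, SE 0.17, adjusted p = 2.2e-05), and with a common median none was higher in males.

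The lists of nervous system, eye and muscle are to be read against 61% of all genes called. Of 22 neuronal and synaptic genes 3 were higher in males, none in females and 19 were not called, with a median of 0.47 in L, 0.58 in H and 0.80 in C, while with a common median none was higher in males and 1 in females. The synaptic fusion gene Snap25 had 3139.6, 2796, 2838 and 2910.1 in males and 1492, 1814, 1552 and 1609 in females (0.85, SE 0.11, adjusted p = 4.18e-06), and Gad1, which makes the transmitter GABA, had 2811, 2264, 2163 and 2225 in males and 1390, 1668, 1373 and 1259 in females (0.73). The active zone gene brp was at 70.3, 85.9, 98.6 and 63.3 in males and 56.8, 1.3, 57.2 and 14.8 in females. Its difference of 1.20 was not called (adjusted p = 0.00564), and without L1 female replicate 1 the difference was larger, at 1.72. Rab3, of the synaptic vesicle, was the remaining gene called (0.69). Of 11 phototransduction genes inaD (0.52) and Arr2 were higher in males and none in females (none and 1 with a common median). Arr2 encodes an arrestin that quenches rhodopsin, and was at 16364, 16485, 15884 and 15243 in males and 10614, 13792, 12393 and 11449 in females (0.41, SE 0.085, adjusted p = 0.000403). Its call ended without L1 female replicate 1 (adjusted p = 0.00232), and its sign turned with a common median. Arr1 (0.29) and Galphaq (0.29) were not called. Of 21 sarcomere genes 1 was higher in each sex and 19 were not called (none higher in males and 3 in females with a common median). Both are troponin C genes, TpnC41C with 13614, 14119.5, 12750.4 and 14175 in males and 8226, 8527, 7685 and 7397 in females (0.78) and TpnC73F with 569, 632, 491 and 804 in males and 1009, 935, 1038 and 1592 in females (-0.85), whose call ended without L1 female replicate 1 (adjusted p = 0.00254).

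The shares of called genes were also read by chromosome. Of 1567 tested genes on X 17.9% were higher in males and 47% in females, with a median difference of -0.45, whereas on the large autosomal arms 23.1% to 27.1% were higher in males and 34.9% to 37.5% in females, with medians from -0.19 to -0.11. Genes over 8-fold higher in males made up 9.7% on X and 12.3% to 16.2% on those arms. Arm 2L had the highest share of male-higher genes by both measures. Of the 60 genes tested on chromosome 4, 15% were higher in males and 21.7% in females. X also had the lowest median of the chromosomes in H (-0.50) and in C (-0.41). These shares are descriptions, since the difference between chromosomes was not tested.

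The sex difference of L departed from that of H and C in few genes. Against the mean of H and C, 9 of 11928 probe sets (0.0755%) and 7 of 9913 genes (0.0706%) were called at an adjusted p under 0.05, 3 genes with a higher and 4 with a lower male minus female difference in L, with 937 (7.86% of probe sets) at an unadjusted p under 0.05. In 5 of the 7 genes both L lines also lay on the same side of all 4 H and C lines, a position that 1387 probe sets (11.6%) took. When limma was run on the means of the 6 lines, so that a line counted as 1 sample, 0 probe sets passed in this contrast, with 588 at an unadjusted p under 0.05 and a lowest adjusted p of 0.748. The count of 9 lay between 2 and 174 when a single array was left out, with 174 without L1 female replicate 2, 43 without C1 female replicate 2 and 16 without C1 female replicate 1.

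In 3 of the 5 genes the male minus female difference was higher in L. Send1, an endopeptidase gene of the secretory cells of the spermatheca, the organ in which females store sperm, had 16.2, 8.0, 1.1 and 2.6 in L males and 358, 306, 514 and 478 in L females. Its Signals were 1.2, 2.4, 1.0 and 2.8 in H males and 1498, 1058, 911 and 916 in H females, and 3.7, 3.8, 1.2 and 2.9 in C males and 728, 1038, 599 and 552 in C females. The female Signals of L lay below all of those of H and C, the sex difference was -4.24 in L, -5.93 in H and -5.26 in C, and the contrast was 1.35 (SE 0.16, adjusted p = 0.00223). CBP, which encodes a calcium-binding protein of the sarcoplasmic type, had 429, 506, 119 and 79.6 in L males and 1342, 1720, 824 and 816 in L females. It had 45.4, 109.5, 61.8 and 77.1 in H males and 1564, 1531, 1257 and 1159.8 in H females, and 71.8, 77.9, 65 and 78.8 in C males and 1401, 1359, 1069 and 936 in C females. The L1 males stood far above all other males, and the difference was -1.67 in L1 and -2.88 in L2 against -4.16 to -3.54 in the other lines (1.59, SE 0.22, adjusted p = 0.00933). Cpr64Ad, a cuticle protein gene, had 204, 245, 69.3 and 61.8 in L males and 287, 136, 27.8 and 19.9 in L females. In H males it had 7.8, 8.4, 13.8 and 10.5 and in H females 80.7, 80.2, 73.5 and 85.5, and in C males 11.7, 32.9, 64.5 and 104 and in C females 52.7, 20.8, 102 and 95.7. The sexes did not differ at the threshold for sex in L (0.60, adjusted p = 0.0291), females were higher in H (-1.88), and the contrast of L with both was 1.71 (SE 0.28, adjusted p = 0.0379).

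In the other 2 the male minus female difference was lower in L. GstD2, a delta class glutathione S-transferase gene, had 403, 345, 419.9 and 414 in L males and 719.8, 1078, 494 and 499.9 in L females. Its Signals were 480, 857, 400 and 435 in H males and 251, 211, 256 and 269 in H females, and 454, 724, 189.6 and 176 in C males and 229.8, 388, 154 and 198 in C females. Every L female was above every other female, and the difference was -0.73 in L, 1.03 in H and 0.48 in C (-1.48, SE 0.24, adjusted p = 0.0379). Its neighbors in name GstD5 (0.40 in L, 1.72 in H, 1.46 in C) and GstD10 (-0.34, 0.55 and 0.99) had both L lines below the others without a call (adjusted p = 0.396 and 0.135). CG30151, with no role given here, had 339, 355, 180.4 and 181 in L males and 429, 416, 235 and 231 in L females, and females were a little higher in both lines (-0.27 and -0.34). In the other lines males were equal or higher, from 0.036 to 0.76, and the contrast was -0.79 (SE 0.13, adjusted p = 0.0379). Of the calls of these 5 genes, that of Send1 held under 42 of 44 alternatives and that of CBP under 37, and those of GstD2, Cpr64Ad and CG30151 under 17 of 44, 18 of 43 and 16 of 44.

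**Figure D5:**
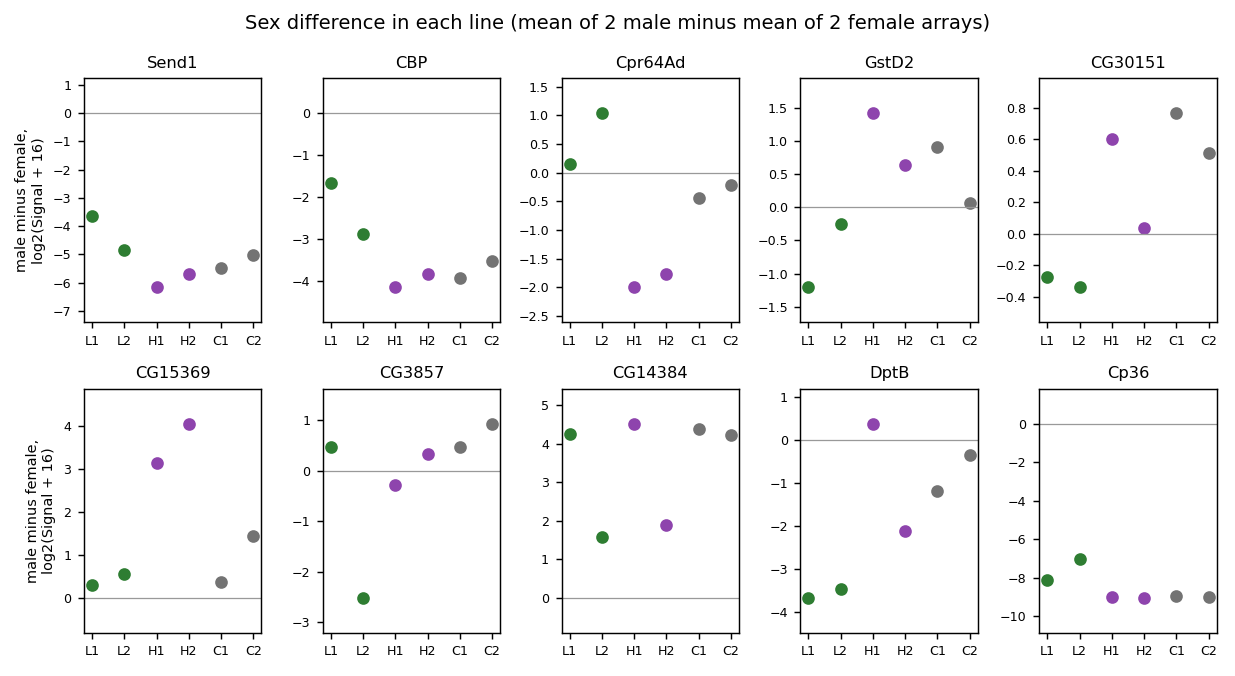
Male minus female difference in log2(Signal + 16) in each of the 6 lines, 2 arrays per sex, for 10 genes, with L lines left and C lines right in each panel. Both L lines of Send1, CBP and Cpr64Ad lie above the other 4 and those of GstD2 and CG30151 below, CG3857 and CG14384 have L2 apart from L1, and the contrasts of DptB and Cp36 were not called.

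In the remaining 2 genes called, the L lines did not both lie outside the range of the other 4. CG3857 on its brightest probe set differed by 0.47 in L1 and -2.52 in L2, and the contrast of L with both groups was -1.39 (SE 0.15, adjusted p = 0.00152). On its other tested probe set, 1623351_at, the same limma contrast was 0.23 and was not called (adjusted p = 0.873). Tejas (tej), which acts with piRNAs in the germline, was at 14.5, 16.2, 2.3 and 5.8 in L males and 533, 420.3, 496 and 504 in L females, and its difference was -4.33 in L, -3.98 in H and -2.89 in C (-0.89, SE 0.15, adjusted p = 0.0401). The call of tej held under 12 of 44 alternatives. In addition 2 probe sets that name no gene were called, and in both the 2 L lines lay below the others.

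Against H alone 18 probe sets (0.151%) and 16 genes (0.161%) were called, and against C alone 9 probe sets (0.0755%) and 9 genes (0.0908%). These contrasts share the L arrays, so their calls are given side by side. CG15369 had the widest difference from H: it was at 109, 111, 60.2 and 72.4 in L males and 100.5, 73.9, 36.6 and 43.4 in L females, but at 119, 320.2, 260.1 and 473 in H males and 9.8, 6.6, 4.6 and 8.0 in H females (-3.17, SE 0.37, adjusted p = 0.00275). The sex difference was 0.43 in L, 3.59 in H and 0.91 in C, and L against C was -0.48 (adjusted p = 0.755). Tsf1, which encodes the iron carrier transferrin, had 7458, 7772, 3981 and 4242 in L males and 6324, 4669.7, 7526 and 6181 in L females against 8859, 8651, 5669 and 7188 in H males and 4028, 3372, 3271 and 3286 in H females, and the sex difference was called in H and not in L (-0.12 in L, 1.10 in H, contrast -1.22, SE 0.21, adjusted p = 0.0414). BomS5, a secreted immune peptide gene, differed by -0.88 in L and 0.37 in H (-1.25, SE 0.23, adjusted p = 0.048), with -0.023 in L1 and -1.73 in L2. Fondue (fon), a clotting gene, differed by -0.14 in L and 0.45 in H (-0.59, SE 0.11, adjusted p = 0.0439). The male-higher genes ms(2)34Fe, a male fertility gene (3.52 in L, 4.75 in H), and CG30447 (3.64 and 5.10) had a smaller male excess in L than in H, where L females had Signals of 88.2, 39.3, 26 and 42.2 for CG30447 and H females 6.7, 5.0, 5.5 and 14.7. In the other direction, the cadherin gene Cad87A (-1.16 in L, -2.0 in H) and Phs (-2.31 and -3.16) had a smaller female excess in L, with L1 males above all H males in both. The other 3 genes each had an adjusted p of 0.0414. CG6403 had a larger female excess in L (-1.19 in L, -0.083 in H), and CG13999 (0.65 and 1.69) and CG8093 (0.13 and 1.12) had lower differences. In C the sex differences were 0.52 for Tsf1, -0.094 for BomS5, 0.33 for fon, 3.91 for ms(2)34Fe and 4.48 for CG30447. They were -1.51 for Cad87A, -2.60 for Phs, -1.04 for CG6403, 0.75 for CG13999 and 0.79 for CG8093. None of these genes was called for L against C.

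Against C, CG15657 had a larger male excess in L, at 2163, 2393, 2045 and 2177 in L males and 16.4, 23.3, 13 and 8.9 in L females against 1476, 1879.5, 1352 and 1509.7 in C males and 65.7, 33.4, 36.6 and 31 in C females (1.36, SE 0.20, adjusted p = 0.0184). CG11263 had a smaller female excess, -2.72 in L and -3.91 in C (1.19, SE 0.19, adjusted p = 0.0213). Tej had a larger one, -4.33 against -2.89 (-1.44, SE 0.18, adjusted p = 0.00389), with male Signals of 14.5, 16.2, 2.3 and 5.8 in L and 41.8, 53.3, 46.3 and 42 in C. HSPBAP1 was female-higher in L (-0.87), and its difference from C (-1.42, SE 0.22, adjusted p = 0.0213) rested on line C1, in which the sex difference was 1.70 against -0.60 in C2, since without C1 its adjusted p was 0.792. CG5539 had a larger male excess in L (6.35) than in C (5.21), with 4.34 in C1 and 6.07 in C2. In H the sex differences were 6.57 for CG5539, 5.7 for CG15657, -3.15 for CG11263 and -0.73 for HSPBAP1. None of these genes was called for L against H. The calls of CBP (1.46), CG3857 (-1.72), CG14384 (-1.39) and CG30151 (-0.95) complete the contrast with C. Of the calls against C, that of CBP held under 9 of 33 alternatives, CG11263 under 17 of 32, HSPBAP1 under 22 of 33, CG15657 under 25 of 33, tej under 28 of 33 and CG3857 under 31 of 33. Of those against H, CG30447 held under 12 of 33, GstD2 under 16 of 33, Cpr64Ad under 27 of 32, CBP under 28 of 33, CG15369 under 30 of 32 and Send1 under 31 of 33.

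Between L1 and L2 the sex difference was called for 5 probe sets (0.0419%) and 3 genes (0.0303%), with 806 probe sets (6.76%) at an unadjusted p under 0.05. CG3857 had 563, 614, 465 and 374 in males and 451, 388, 2412 and 2527 in females, so that the L2 females stood apart from all other L arrays, and the difference of L1 minus L2 was 2.99 (SE 0.24, adjusted p = 3.81e-05), a call that held under all 20 alternatives. A second CG3857 probe set, 1623351_at, had 65.5, 63.4, 54.2 and 43.2 in males and 123, 160.2, 135 and 111 in females and differed by -1.03, with nothing called between the lines (adjusted p = 0.98). CG14384 was at 393, 469, 528 and 434 in males and 14.6, 1.9, 146 and 155 in females: males were level, and the L2 females were far above the L1 females (2.68, SE 0.27, adjusted p = 0.000338), a call that held under 17 of 20 alternatives. The same held for the H lines, with 3.3, 1.7, 122 and 95.5 in H females, and not for C, with 2.8, 1.7, 2.7 and 2.3 in C females. AANATL7, an N-acetyltransferase gene of the arylalkylamine family, was at 611, 774, 1011 and 892 in males and 67, 40.1, 5.2 and 13.3 in females, and its male excess was smaller in L1 (-1.91, SE 0.30, adjusted p = 0.0366). Its highest female Signal was that of L1 female replicate 1, and the call held under 9 of 20 alternatives.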

How the data were processed

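Whole flies were hybridized to Affymetrix Drosophila GeneChip 2.0 arrays, and the deposited values are Signal intensities that the authors made with MAS5, as named in the submitters' processing notes, from matched and mismatched probes, with each array scaled to a common level. Of 18769 probe sets, the 11928 with a Signal of at least 50 on at least 12 of 24 arrays were kept and analyzed as log2(Signal + 16). The authors' filter by detection call was not used. Means for each line and sex were fitted to 24 arrays with limma 3.58.1 in R 4.3.3 (12 residual degrees of freedom), and sex differences, differences of L from H and C, and L1 minus L2 were contrasts of these means, with Benjamini-Hochberg adjustment over all kept probe sets. The script was tested on simulated data. Probe sets that name 1 gene (13647, of which 13544 matched RefSeq Release 6) were used for genes, each gene by its probe set with the highest mean, and 402 name several genes and 4720 none.

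The number of arrays limits the precision. Separate cultures for the samples of a line are not stated in the sources used here, so the p-values measure only the spread between these samples, which may be technical. The rule for named genes took the 10 largest sex differences in each direction without overlap of the sexes, up to 10 in each direction of L against the mean of H and C, the 3 largest in each direction of the other contrasts, the 3 members of each list with the highest Signals, all members of the lists of sex determination and of fat body and head, and CG14384 and CG3857. All other genes named, among them extremes of a list and paralog counterparts, were added after their values were seen. The comparison, the gene lists and the tests were chosen with earlier results of these data known. Whether replicate numbers pair male and female samples is not known. The deviations of male and female samples with the same number correlated weakly (from -0.036 to 0.11), which cannot decide it. Other pseudocounts, filters, scalings, models, and left-out arrays and lines were tried.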

Additional observations from a re-analysis of the deposited data

Results flagged for a closer look

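In 23 of 308 sets of 4 L arrays examined, a sample lay apart from the other 3 by the Dixon criterion, which chance alone meets in about 1 in 20 such sets. L1 female replicate 1 was the sample in 10 of the 23. It had the highest female Signal of Acp53C14a (38.1), Acp95EF (157), CG15219 (10.8) and S-Lap7 (18.5), and the lowest female Signal of CycB (9046), FASN1 (10585), Hsc70-5 (4284), Vm26Aa (9118), Vm34Ca (12956) and eloF (4156). L1 female replicate 2 was highest for Galphaq (1518) and lowest for Jon66Cii (179.7), Mtk (3917) and Ugt35C1 (539). L2 female replicate 1 was lowest for Obp19c (281), and L2 female replicate 2 was highest for Ugt35B1 (1306). Among males, L1 replicate 1 was highest for Ugt50B3 (2889) and lowest for Vm34Ca (5.3), L1 replicate 2 was highest for Cp7Fc (24.5), L2 replicate 1 was lowest for Cyp312a1 (1857) and mof (75.3), and L2 replicate 2 was highest for Def (177) and lowest for fru (156).

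Named genes whose male minus female difference limma called different between L and the other groups, or between the L lines, had these values. Relative to the mean of H and C, the L value was higher by 1.71 for Cpr64Ad, 1.59 for CBP and 1.35 for Send1, and the difference was -1.48 for GstD2, -1.39 for CG3857, -0.89 for tej and -0.79 for CG30151. L against H gave 2.48 for Cpr64Ad, 1.73 for CBP, 1.69 for Send1, 0.85 for Phs, 0.84 for Cad87A, -3.17 for CG15369, -1.75 for GstD2, -1.45 for CG30447, -1.25 for BomS5, -1.23 for ms(2)34Fe, -1.22 for Tsf1, -1.05 for CG3857, -0.59 for fon, -1.11 for CG6403, -1.04 for CG13999 and -0.99 for CG8093. L against C gave 1.46 for CBP, 1.36 for CG15657, 1.19 for CG11263, -1.72 for CG3857, -1.44 for tej, -1.42 for HSPBAP1, -1.39 for CG14384, 1.15 for CG5539 and -0.95 for CG30151. L1 minus L2 gave 2.99 for CG3857, 2.68 for CG14384 and -1.91 for AANATL7. None of the calls against H and C passed with the line as the replicate.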

How the results depend on the processing

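The count of probe sets called for the sex difference in L, 6955, kept within 1.5 times under all but 1 alternative and was 4577 with the line as the replicate. Leaving out an L array at a time gave 6339 to 6729, and 6564 without L1 female replicate 1. Of 104 named genes called for sex, 73 stayed called with the same sign under all 23 alternatives. With arrays scaled to a common median 4 turned without being called, Arr2 (-0.17), EbpIII (-0.14), Obp99c (-0.084) and Ugt36D1 (-0.12), and with L1 alone CG3857 was at 0.47 for sex and at 0.11 for L against H and C. The cause of these changes was not tested.

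The counts of the other contrasts, 9 for L against the mean of H and C, 18 for L against H, 9 for L against C and 5 for L1 against L2, were not stable. Without each array in turn they spanned 2 to 174, 3 to 214, 2 to 156 and 2 to 270. The values of 174, 214 and 270 came without L1 female replicate 2, which also gave 78 against C, and 156 came without C1 female replicate 2, which gave 43 against H and C. Against H and C, L gave 23 probe sets with a pseudocount of 64, 5 without the filter, 18 with quantile normalization within each sex, 83 with the methods' linear model on untransformed Signals, 3 with array weights, 20 without L1 female replicate 1 and C1 female replicate 1, 27 with L2 alone, 4 without H1, 2 with the first H1 and H2 male samples exchanged, 3 at an adjusted p under 0.01 and 0 with the line as the replicate. Against H it gave 6 without the filter, 131 with the model of the methods, 37 with L2 alone, 28 with L1 alone, 6 without H1, 8 with the exchanged samples, 3 at 0.01 and 0 by line (656 at an unadjusted p under 0.05 in limma). Against C it gave 22 with a pseudocount of 64, 17 with a common median within each sex (chosen after seeing the data), 31 with quantile normalization, 209 with the model of the methods, 31 without both doubted arrays, 17 with L2 alone, 1 with L1 alone, 16 without C2, 2 at 0.01 and 0 by line (630 at an unadjusted p under 0.05 in limma). L1 against L2 gave 9 with a pseudocount of 1, 8 and 9 with a common median overall and within each sex, 8 with quantile normalization, 66 with the model of the methods, 2 with the spread of the 8 L arrays alone and 2 at 0.01. The replicate number as a block gave 3, 3, 1 and 1 probe sets for the 4 contrasts and 6505 for sex. Whether the numbers pair the samples is not known, and the cause of these losses was not tested.

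The share of calls with a higher value in L also moved with the scaling. Against H it was 27.8% as deposited, 52.9% with a common median, 60% with one within each sex and 40% with quantile normalization, and against C 44.4%, 69.2%, 76.5% and 67.7%. For sex the share higher in males was 37.6% as deposited and 23.3% with a common median. Low Signals close to 0 limit the size of the widest sex differences.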

Other observations

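Probe set 1629530_at, which names no gene, had Signals of 1230, 1786.5, 218 and 159 in L males and 2985, 1704.5, 2248 and 2737 in L females. It was higher in females in L (-2.11, adjusted p = 3.2e-05 in limma), while its sex difference was 0.66 in H and 0.25 in C, and the difference of L from both was -2.57 (adjusted p = 0.0379). The L2 males stood below all other L arrays. Probe set 1628699_at, also without a gene name, differed far more between lines than between sexes, with 7127, 7938, 219.8 and 204 in L males and 6271, 5736, 271 and 290.2 in L females. Its sex difference was -0.027 in L, 2.51 in H and 1.44 in C (-2.0 for L against both, adjusted p = 0.0379). Probe set 1630934_at had 70.3, 119.7, 2308 and 2339 in L males and 625.6, 427.1, 3059.9 and 2839 in L females, and its female excess was larger in L1 (-1.96 for L1 minus L2, adjusted p = 0.0195). Both first probe sets are those called against H and C that name no gene, and all 3 were chosen after their values were seen.

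The sex difference of 25 genes was called in L and passed a threshold of 0.05 in neither H nor C, and none of these 25 was called for a difference of L from the mean of H and C.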
